A study of Mus musculus with 19 samples.

Results

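The genes described here are 10 genes of glucose uptake and glycolysis, *Slc2a1*, *Slc2a3*, *Hk1*, *Hk2*, *Pfkp*, *Aldoa*, *Pgk1*, *Eno1*, *Tpi1* and *Ldha*, taken by symbol from a table of 24982 genes. The table writes them as SLC2A1, SLC2A3, HK1, HK2, PFKP, ALDOA, PGK1, ENO1, TPI1 and LDHA, and all 10 were found in it. RNA had been sequenced from regulatory T cells (Tregs), which are CD4+ T cells that express the transcription factor FoxP3 and restrain other immune cells. Tregs were sorted into a subset with high and a subset with low surface CD44, a receptor that rises on T cells that have met antigen. The groups were CD44high Tregs (n = 4) and CD44low Tregs (n = 5) of uninjured mice, and CD44high Tregs (n = 4) and CD44low Tregs (n = 6) of injured mice, 19 libraries in all. All mice, the controls included, were Foxp3DTR mice, which carry a diphtheria toxin receptor fused to GFP at the *Foxp3* locus, so that the sort on GFP used the reporter and not the protein FoxP3 itself. They were 8 to 16 weeks old. Injured mice had received a burn of 20% of the body surface (water of 90 °C for 9 seconds), uninjured mice the same procedure with water at room temperature, and the axillary, brachial and inguinal lymph nodes were taken 7 days later. RNA came from 50000 cells per sample. Neither the number of mice behind a sample nor what the second number of the injured CD44low libraries 1_2, 4_2 and 5_2 stands for is stated in the labels. Each library was taken as 1 replicate, and p-values measure the spread between these libraries, which may be in part technical.

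Glycolysis splits glucose into pyruvate in the cytosol and yields ATP without oxygen. Glucose enters through transporters of the SLC2A (GLUT) family, is trapped by hexokinase, committed by phosphofructokinase, cleaved by aldolase and carried through triosephosphate isomerase, GAPDH, phosphoglycerate kinase, phosphoglycerate mutase, enolase and pyruvate kinase, and lactate dehydrogenase then turns pyruvate into lactate. Activated and dividing T cells raise glucose uptake and lactate output, and in Tregs glycolysis is known to accompany proliferation and migration, whereas resting Tregs lean more on mitochondrial respiration. Much of the pathway is driven by the hypoxia-inducible factor HIF-1 and by MYC, which bind short DNA words around ACGTG.

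The libraries held between 5582234 and 9433610 counts. Levels are given as CPM, in which counts are set against the library total scaled by edgeR's TMM factors, and per kb of transcript where genes are compared with each other. The gene of the sort behaved as the labels say: *Cd44* was at 595 ± 37.5 CPM (SD, n = 4) in CD44high and 133 ± 16.1 CPM (n = 5) in CD44low Tregs of uninjured mice, and at 436 ± 54.6 and 117 ± 18.2 CPM in injured mice. *Foxp3* and *Cd4* were detected in every library. Markers of other cells were present at low levels that differed between groups. The summed level of 7 myeloid genes lay between 62.6 and 131 CPM in CD44high and between 21.4 and 37.2 CPM in CD44low Tregs of uninjured mice, and between 109 and 240 and between 31.5 and 150 CPM in injured mice. Most of it was *Lyz2*, while *Cd14* averaged at most 0.223 CPM in any group. Of the 7, 6 were tested, as *Cd14* did not pass the filter on low counts. In CD44high Tregs 4 were called higher in uninjured and 2 in injured mice, beside 24.7% and 20.1% of all genes tested. After injury 1 (*S100a9*) was called higher in CD44high and 3 in CD44low Tregs, beside 1.06% and 4.24% of all genes tested. The 5 B cell genes summed to between 70.3 and 206 CPM, both CD8 genes to between 39.2 and 65.7 CPM and the 5 erythroid genes to at most 2.24 CPM over all libraries. Of the 5 B cell genes, 1 (*Cd79b*, log2 fold change 0.84) was called higher in CD44high Tregs of uninjured mice and 0 in injured mice. Among all genes tested, 24.7% and 20.1% were called higher. The subsets also differed in 10 genes of cell division, whose summed level lay between 723 and 981 CPM in CD44high and between 22.2 and 47.6 CPM in CD44low Tregs of uninjured mice, and between 496 and 600 and between 37.0 and 66.7 CPM in injured mice. All 10 were called higher in CD44high Tregs in both states, beside 24.7% of all genes tested in uninjured and 20.1% in injured mice. The part of these cells and of cell division in the results below was not tested. In bulk RNA, fewer cells that express a gene and less RNA per cell cannot be told apart.

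Summed over the 10 genes, the level was 3719 ± 99.3 CPM in CD44high and 2729 ± 110 CPM in CD44low Tregs of uninjured mice, and 3899 ± 270 and 3044 ± 258 CPM in injured mice. *Ldha* and *Aldoa* made up most of these sums. Per kb of transcript, *Ldha* came first and *Aldoa* second in all 4 groups, at 930 and 468 CPM per kb in CD44high and at 656 and 359 CPM per kb in CD44low Tregs of uninjured mice. The order behind them differed between the subsets. In CD44high Tregs of uninjured mice it ran *Tpi1* (131 CPM per kb), *Hk1* (103), *Pfkp* (77.8), *Slc2a3* (59.5), *Pgk1* (49.7) and *Slc2a1* (34.4), and among these neighbours the libraries overlapped between *Tpi1* and *Hk1*. In CD44low Tregs of uninjured mice it ran *Hk1* (91.6 CPM per kb), *Pfkp* (53.1), *Tpi1* (50.5), *Slc2a3* (50.3), *Slc2a1* (36.6) and *Pgk1* (28.8), and all neighbours from *Pfkp* to *Pgk1* overlapped. *Tpi1* thus stood at position 3 in CD44high and at position 5 in CD44low Tregs of uninjured mice, and in injured mice it was again at 3 (125 CPM per kb) and 5 (57.8 CPM per kb). *Hk2*, at 0.468 to 0.756 CPM per kb, stood behind these 8 genes in every group. *Eno1* was listed at 0.0850 to 0.134 CPM per kb, but its transcript shares most of its sequence with a copy, its level is uncertain, and it was given no place in the order. *Pgk1* is given at its listed place, but its transcript also shares most of its sequence, with a pseudogene. Its level per kb and its place are therefore uncertain too.

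**Figure D1:**
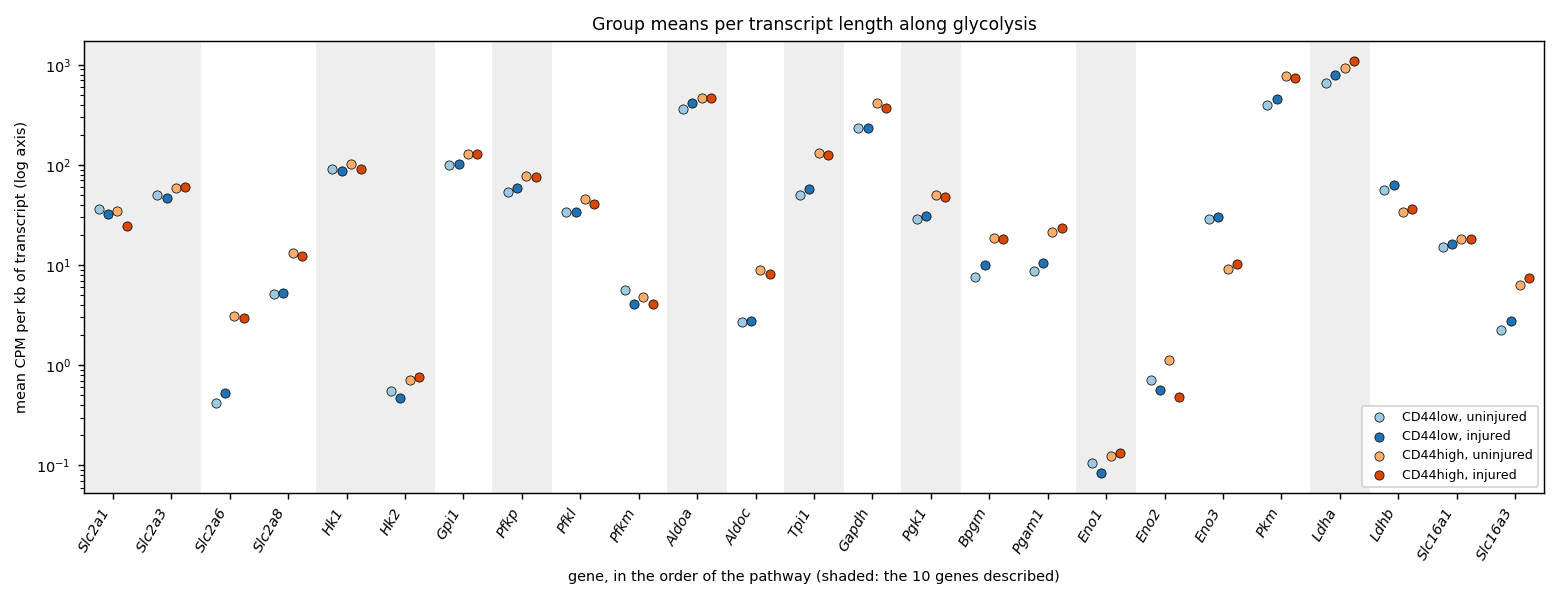
Mean level in each group (CPM per kb of transcript, log axis) of the genes of glucose uptake and glycolysis in pathway order, with the 10 genes described here shaded and 1 point per group. *Ldha* and *Aldoa* stand highest among the shaded genes and *Hk2* far below them, and *Tpi1*, *Pgk1*, *Pfkp* and *Ldha* show CD44high points above CD44low points. The levels of *Eno1* and *Pgk1* are uncertain because each shares most of its sequence with a copy.

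The first question was how the subsets differ in mice without injury. Of the 9 genes that passed edgeR's filter on low counts, 5 were higher in CD44high than in CD44low Tregs, *Tpi1*, *Pgk1*, *Pfkp*, *Ldha* and *Aldoa*, and 0 were lower (edgeR's quasi-likelihood test, two-sided, Benjamini-Hochberg over 11464 genes, with calls made below an adjusted p of 0.05). Over all 11464 genes tested, 46.1% were called in this comparison, 24.7% higher and 21.3% lower. DESeq2 called 5 of the 9 as well. The median log2 fold change of the 9 genes was 0.38, against 0.01 over all genes tested. The changes were of modest size, and at an unadjusted p under 1e-06 with a 2-fold change, the threshold the study used, 1 of the 9 (*Tpi1*) was counted, beside 8.3% of all genes tested. The study set this threshold on p-values of DESeq2, whereas here and below it was set on those of edgeR. Counts at it are therefore not those the study would give.

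*Tpi1*, which interconverts both triose phosphates made by aldolase, differed by the largest factor among the 9. Its level was 171, 215, 209 and 245 CPM in the CD44high libraries 2, 3, 4 and 5, and 89.3, 76.6, 80.1, 74.9 and 84.7 CPM in the CD44low libraries 1 to 5 of uninjured mice. Every CD44high library lay well above every CD44low library. The log2 fold change was 1.37 ± 0.13 (SE), or 2.59-fold (adjusted p = 7.18e-09).

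*Pgk1* encodes phosphoglycerate kinase, the first of the enzymes that return ATP. It was at 83.3, 87.0, 95.6 and 97.2 CPM in the CD44high libraries and at 52.4, 46.2, 51.5, 53.5 and 58.9 CPM in the CD44low libraries. The groups did not overlap, and the log2 fold change was 0.79 ± 0.11 (1.73-fold, adjusted p = 2.73e-06). *Pfkp*, the platelet-type phosphofructokinase at the committed step, was at 335, 353, 289 and 313 CPM against 226, 215, 216, 215 and 230 CPM. Its 5 CD44low libraries lay close together, and all CD44high libraries stood above them (log2 fold change 0.55 ± 0.08, 1.46-fold, adjusted p = 9.76e-06).

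*Ldha*, the lactate dehydrogenase subunit that favours lactate formation, was at 1603, 1647, 1661 and 1660 CPM in CD44high and at 1055, 1112, 1188, 1161 and 1280 CPM in CD44low libraries. The 4 CD44high libraries had a coefficient of variation of 1.66%, the lowest of any member and group, and stood above all CD44low libraries (log2 fold change 0.50 ± 0.10, 1.42-fold, adjusted p = 0.000166). *Aldoa*, the main aldolase of lymphocytes and muscle, was at 719, 722, 666 and 722 CPM against 614, 519, 500, 490 and 588 CPM. Here too the groups did not overlap (log2 fold change 0.38 ± 0.11, 1.30-fold, adjusted p = 0.00587).

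Neither glucose transporter passed the threshold in uninjured mice, and for *Slc2a3* this depended on the fit. *Slc2a1* (GLUT1, the transporter that rises on T cell activation) was at 131, 117, 84.9 and 115 CPM in CD44high and at 151, 130, 114, 84.8 and 118 CPM in CD44low libraries. The ranges nearly coincided, and the log2 fold change was -0.09 with a 95% interval from -0.38 to 0.20 (adjusted p = 0.635). *Slc2a3* (GLUT3, a transporter of high affinity) lay between 221 and 264 CPM in CD44high and between 175 and 213 CPM in CD44low libraries. Its groups did not overlap, but its log2 fold change of 0.24 ± 0.11 missed the threshold (adjusted p = 0.0721). It passed with only the groups compared (adjusted p = 0.0261), with injured CD44low libraries 1 and 1_2 and 5 and 5_2 summed (0.0409), without libraries 1_2, 4_2 and 5_2 (0.0407), without injured CD44low library 5 (0.0404) and with trends of length and GC content taken out (0.00634). *Hk1*, the hexokinase bound to mitochondria in most tissues, overlapped between 350 and 438 CPM and between 302 and 424 CPM (log2 fold change 0.16, 95% interval -0.05 to 0.37, adjusted p = 0.228). With trends of length and GC content taken out it was called (0.26, adjusted p = 0.0117).

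*Hk2*, the inducible hexokinase, was rare. It had 16, 28, 32 and 22 counts in the CD44high libraries, and 67, 4, 2, 17 and 8 counts in the CD44low libraries 1 to 5. Library 1 of the CD44low group, with 10.5 CPM, stood above every other library of the series, while the other 4 CD44low libraries lay between 0.284 and 2.44 CPM, below the lowest CD44high library at 2.70 CPM. With all libraries the log2 fold change was 0.36 ± 0.65 (adjusted p = 0.673), and without CD44low library 1 it was 1.70 (adjusted p = 0.0170). The call for *Hk2* therefore depended on 1 library.

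Counted over libraries, 6 of the 9 genes showed no overlap between the subsets in uninjured mice, the 5 called genes and *Slc2a3*, beside 40.7% of all genes tested.

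**Figure D2:**
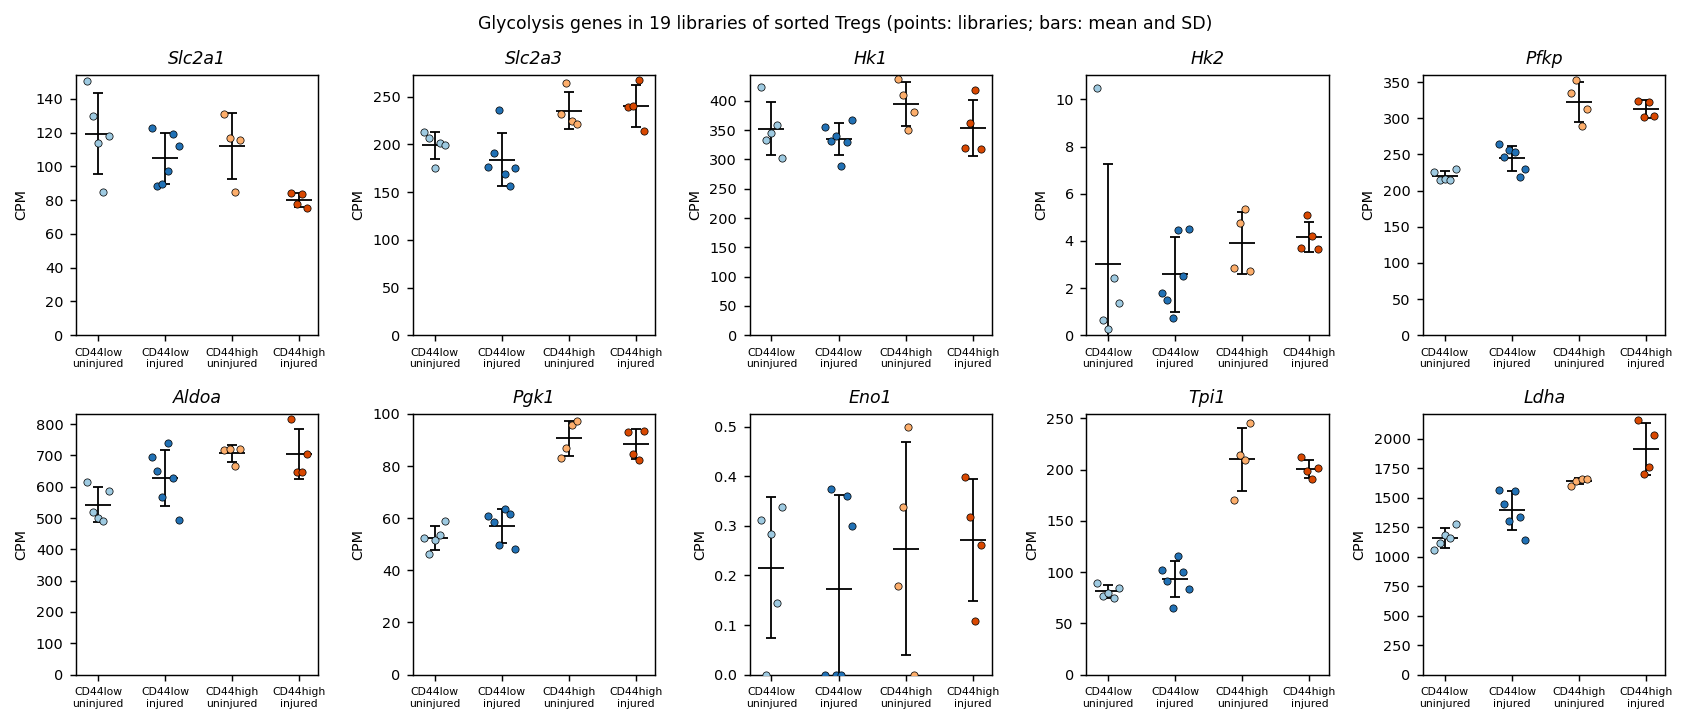
Level of each of the 10 genes in every library (CPM, linear axes that start at 0), with 1 point per library and bars for the mean and SD of each group. *Tpi1* and *Pgk1* separate CD44high from CD44low libraries in both states, *Slc2a1* is lowest in injured CD44high libraries, and 1 uninjured CD44low library stands alone for *Hk2* at 10.5 CPM.

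The second question was whether the subsets differ in the same genes 7 days after the burn. Of the 9 genes, 5 were higher in CD44high Tregs of injured mice (*Tpi1*, *Pgk1*, *Pfkp*, *Ldha* and *Slc2a3*) and 1 was lower (*Slc2a1*). Over all genes tested 37.4% were called, 20.1% higher and 17.2% lower. DESeq2 called 6 of the 9. The median log2 fold change of the 9 was 0.39, against -0.00049 over all genes tested.

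*Tpi1* was at 212, 198, 191 and 202 CPM in the CD44high libraries 2 to 5 of injured mice, and in the CD44low libraries it ran from 65.2 through a median of 95.4 to 116 CPM. The groups were again far apart (log2 fold change 1.11 ± 0.12, 2.16-fold, adjusted p = 1.22e-07), and *Tpi1* was again the 1 gene of the 9 past the threshold of the study, beside 6% of all genes tested. *Pgk1* was at 93.1, 84.7, 82.1 and 93.4 CPM in CD44high libraries against 48.2 to 63.4 CPM, median 59.6, in CD44low libraries, without overlap (log2 fold change 0.63 ± 0.10, adjusted p = 3.72e-05). *Ldha* was at 2157, 1701, 1763 and 2036 CPM against 1145 to 1567 CPM, median 1392, which also left a gap between the subsets (log2 fold change 0.46 ± 0.09, adjusted p = 0.000366). *Pfkp* was at 324, 301, 322 and 303 CPM against 219 to 265 CPM, median 250, and did not overlap either (log2 fold change 0.35 ± 0.08, adjusted p = 0.00120). *Aldoa*, called in uninjured mice, overlapped and missed the threshold here, with 817, 646, 648 and 704 CPM against 494 to 741 CPM, median 639 (log2 fold change 0.16 ± 0.10, adjusted p = 0.232). In edgeR fits blocked by replicate number it passed, over all samples (adjusted p = 0.0484) and within each injury state (0.0425). The blocks took libraries 1_2, 4_2 and 5_2 as numbers 1, 4 and 5.

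The glucose transporters differed in opposite directions in injured mice. *Slc2a1* was at 83.9, 77.6, 83.4 and 75.3 CPM in CD44high libraries, and in CD44low libraries it ran from 88.3 through a median of 105 to 122 CPM. All CD44high libraries lay below all CD44low libraries, with a log2 fold change of -0.39 ± 0.14 (adjusted p = 0.0345). That call was close to the threshold and did not hold when 1 of 6 libraries was left out: the adjusted p was 0.0733, 0.0559 and 0.0941 without CD44high libraries 3, 4 and 5, and 0.0551, 0.0627 and 0.0516 without CD44low libraries 1, 4_2 and 5_2. *Slc2a3* was at 239, 240, 268 and 214 CPM against 156 to 235 CPM, median 176, with 1 CD44low library inside the CD44high range (log2 fold change 0.39 ± 0.10, adjusted p = 0.00501). Without the CD44low libraries 1_2, 4_2 and 5_2, *Slc2a1* (adjusted p = 0.151) and *Slc2a3* (adjusted p = 0.0785) were not called, and 4 of the 9 genes, all higher, remained past the threshold. Blocking by replicate number over all samples left *Slc2a1* uncalled (adjusted p = 0.123), and blocking within each injury state left *Slc2a3* uncalled (0.0632).

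*Hk1* was between 317 and 419 CPM in CD44high and between 288 and 367 CPM in CD44low libraries (log2 fold change 0.08, 95% interval -0.12 to 0.28, adjusted p = 0.571). *Hk2* had 28, 48, 39 and 28 counts against 5 to 30 counts (log2 fold change 0.70 ± 0.61, adjusted p = 0.384). Neither hexokinase was called. In injured mice 5 of the 9 genes did not overlap between the subsets, *Tpi1*, *Pgk1*, *Pfkp* and *Ldha* above and *Slc2a1* below, beside 24.8% of all genes tested.

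**Figure D3:**
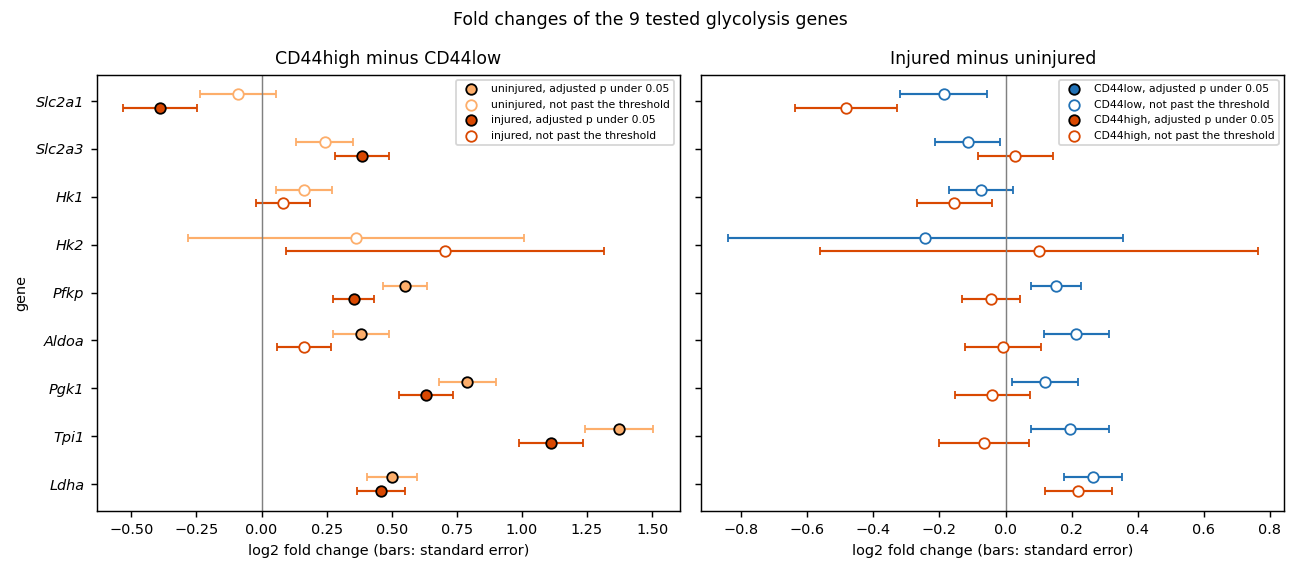
Log2 fold changes of the 9 tested genes with standard errors, CD44high minus CD44low on the left and injured minus uninjured on the right, with filled points for an adjusted p under 0.05. *Tpi1* lies farthest from 0 on the left at 1.37 and 1.11, and no point is filled on the right.

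The third question was what the burn changed within each subset. In CD44high Tregs 0 of the 9 genes were called by edgeR, where 2.38% of all genes tested were called (1.06% higher and 1.33% lower), and 0 by DESeq2. At an unadjusted p under 0.05 there were 2, *Slc2a1* and *Ldha*, and at the threshold of the study 0, beside 0.148% of all genes tested. *Slc2a1* was lower in every injured library (75.3 to 83.9 CPM) than in any uninjured library (84.9 to 131 CPM), with a log2 fold change of -0.48 ± 0.15 (edgeR, adjusted p = 0.107). Without uninjured library 4, which at 84.9 CPM was the one nearest to the injured libraries, the log2 fold change was -0.59 (adjusted p = 0.0495). *Ldha* was higher in every injured library (1701 to 2157 CPM) than in any uninjured library (1603 to 1661 CPM), with a log2 fold change of 0.22 ± 0.10 (edgeR, adjusted p = 0.302). These were the 2 of 9 genes without overlap, beside 13.3% of all genes tested. The other 7 had log2 fold changes between -0.16 and 0.10.

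In CD44low Tregs 0 of the 9 genes were called by edgeR, where 7.6% of all genes tested were called (4.24% higher and 3.36% lower), and 2 (*Aldoa* and *Ldha*) had an unadjusted p under 0.05. DESeq2 called 1, *Ldha*, and at the threshold of the study there were 0, beside 0.122% of all genes tested. *Ldha* ran from 1055 to 1280 CPM in the 5 uninjured libraries and from 1145 through 1392 to 1567 CPM in the 6 injured libraries, with 5 of the 6 injured libraries above all uninjured ones. Its log2 fold change was 0.27 ± 0.09 (adjusted p = 0.0595), and with DESeq2 it was 0.28 (adjusted p = 0.0197). Leaving out 1 library put edgeR's adjusted p for *Ldha* under the threshold in 7 cases, and it was lowest (0.0104) without injured library 5_2. *Aldoa* had a log2 fold change of 0.21 ± 0.10 (adjusted p = 0.169), and without library 5_2 it was 0.30 (adjusted p = 0.0322). *Pfkp* (0.15 ± 0.08, adjusted p = 0.202), *Tpi1* (0.20 ± 0.12, adjusted p = 0.305) and *Pgk1* (0.12 ± 0.10, adjusted p = 0.477) had positive log2 fold changes that did not pass. Those of *Slc2a1* (-0.19 ± 0.13, adjusted p = 0.383) and *Slc2a3* (-0.11 ± 0.10, adjusted p = 0.484) were negative and did not pass either. None of the 9 separated injured from uninjured CD44low libraries, beside 4.68% of all genes tested.

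Whether the burn acted differently on the subsets was asked with the interaction of subset and injury. By edgeR 0 of the 9 genes were called, 0 had an unadjusted p under 0.05 and DESeq2 called 0, beside 0.645% of all genes tested (0.192% higher and 0.454% lower). At the threshold of the study there were 0, beside 0.0872%. For *Tpi1* the interaction was -0.26 on the log2 scale with a 95% interval from -0.61 to 0.09, for *Ldha* -0.04 (-0.31 to 0.22) and for *Slc2a1* -0.30 (-0.70 to 0.10). A difference between the subsets in their response was not detectable, and intervals of this width do not show that they responded alike.

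Ratios of paired genes within a library do not depend on how libraries are scaled, and 3 such ratios were compared between the subsets by exact permutation tests over libraries (two-sided, 6 tests, adjusted by Benjamini-Hochberg). *Ldha* over *Ldhb*, the subunits of lactate dehydrogenase that favour lactate and pyruvate, had a log2 ratio of 5.23 ± 0.11 (SD, n = 4) in CD44high and 4.00 ± 0.22 (n = 5) in CD44low Tregs of uninjured mice (difference 1.23, exact p = 0.00794, the smallest this design can give, adjusted p = 0.0190). In injured mice it was 5.36 ± 0.28 (n = 4) and 4.11 ± 0.24 (n = 6) (difference 1.25, exact p = 0.00476, again the smallest possible, adjusted p = 0.0190). The subsets did not overlap in either state. Both parts of the ratio took a share: *Ldhb* itself was lower in CD44high Tregs by 0.73 on the log2 scale in uninjured (adjusted p = 0.00104) and by 0.79 in injured mice (adjusted p = 0.000422). Without CD44low library 1, 2, 3 or 5 of the uninjured mice the adjusted p of the ratio was 0.0571, where 4 libraries against 4 allow no unadjusted p below 0.0286.

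*Slc2a1* over *Slc2a3* had a log2 ratio of -1.08 ± 0.26 in CD44high and -0.76 ± 0.29 in CD44low Tregs of uninjured mice (difference -0.33, exact p = 0.135, adjusted p = 0.189), and of -1.58 ± 0.09 and -0.81 ± 0.38 in injured mice (difference -0.77, exact p = 0.00952, adjusted p = 0.0190). Without CD44low library 4 of the uninjured mice the difference there was -0.45 (exact p = 0.0286, adjusted p = 0.0429). *Hk2* over *Hk1* differed by 1.12 in uninjured (exact p = 0.294) and by 0.83 in injured mice (exact p = 0.157), within the spread of its low counts. In injured mice the difference passed when the libraries with a second number were left out (1.63, exact p = 0.0286, adjusted p = 0.0429) or when 1 and 1_2 and 5 and 5_2 were summed (0.74, with the same p-values).

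**Figure D4:**
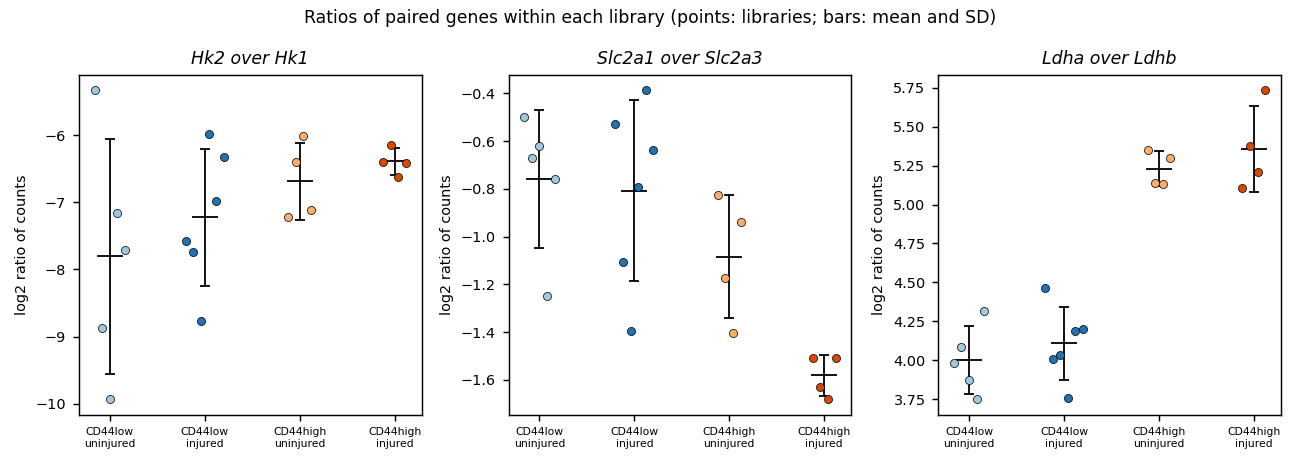
Log2 ratios of counts in each library for *Hk2* over *Hk1*, *Slc2a1* over *Slc2a3* and *Ldha* over *Ldhb*, with 1 point per library and bars for the mean and SD of each group. The *Ldha* over *Ldhb* ratios of CD44high libraries lie at 5.10 or higher and those of CD44low libraries at 4.46 or lower, while *Hk2* over *Hk1* spreads over several log2 units in CD44low libraries.

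*Eno1*, the enolase of most tissues, had 0 to 3 counts per library and 29 counts over all 19 libraries, with 5 libraries at 0. In a library at 0, 3 counts would correspond to 0.369 to 0.517 CPM. It did not pass the filter and was not tested. Other enzymes of the same stretch of the pathway, which work on the same flow of substrate, were abundant, so the sequence of its transcript was searched for words that other genes of the annotation (GENCODE, GRCm38) also hold. Of the 50-base words of the *Eno1* transcript, 72.2% occurred in another gene, most of them (70.5% of all words) in *Eno1b*, a near-identical copy listed as protein coding. Of its 100-base words 59.0% did. *Eno1b* itself had 52 counts over all libraries, and both together 2 to 8 counts per library. No source used here states how reads that match several places were treated, and the level of *Eno1* is therefore uncertain and cannot be set beside those of the other members.

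The same search showed which other members could lose or share reads. For *Pgk1*, 68.0% of the 50-base words and 67.0% of the 100-base words were shared, nearly all with the processed pseudogene *Pgk1-rs7*, which has no row in the count table. The level of *Pgk1* is therefore uncertain as well. *Gapdh* shared 82.5% of its 50-base words, all of them also held by the pseudogene *Gm7336*, which has no row in the count table either. It had 1544 to 5173 counts per library. The part of shared sequence in the low counts of *Eno1* was not tested. *Pfkp* shared 17.1%, all with *Pitrm1*, a peptidase gene whose transcripts hold the same stretch. The library kit does not mark strand, so reads from it cannot be assigned to 1 of the genes. *Pitrm1* had a log2 fold change of -0.25 (adjusted p = 0.172) between the subsets in uninjured and of -0.40 (adjusted p = 0.0277) in injured mice. The part of reads from the shared stretch in the difference of *Pfkp* was not tested. *Ldha* (17.1%), *Aldoa* (13.9%) and *Tpi1* (7.51%) shared few 50-base words, with 1.32%, 0 and 0.80% of their 100-base words shared. *Slc2a1* shared 1.74% with an antisense gene, and *Slc2a3*, *Hk1* and *Hk2* shared 0 words of 50 bases. Outside the members, *Ldhb* shared 27.0% of its 50-base and 8.80% of its 100-base words, and *Pkm* 34.4% and 9.82%.

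**Figure D5:**
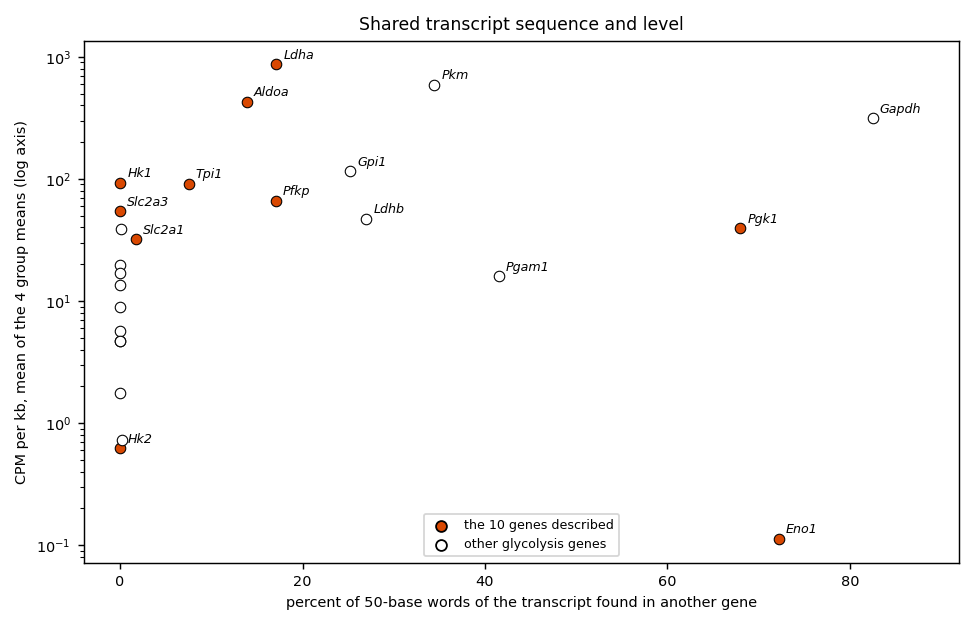
Level of each glycolysis gene (CPM per kb, mean of the 4 group means, log axis) against the percent of 50-base words of its transcript that another gene also holds, with the 10 genes described here filled. *Eno1* is drawn lowest at 72.2% shared, whereas *Pgk1* at 68.0% and *Gapdh* at 82.5% lie far higher. Levels of genes with such large shares are uncertain.

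The proximal promoters of the members were read for the words bound by HIF-1 and MYC, whether or not a member differed between the subsets. RefSeq (GRCm38.p6) gave 15 start sites for 9 of the 10 members, with *Slc2a3* left out. In the 250 bases before the start, ACGTG or GCGTG on either strand occurred in 12 of the 15 windows and in 8 of the 9 genes, against 38.6% of 32841 windows and 41.5% of 27018 genes overall. Windows of *Eno1* and of *Aldoa* overlap and hold the same words, which were counted more than once. The shares were not matched for the number of start sites per gene or for GC content. ACGTG occurred in 6 of the 15 (16.6% of all windows), GCGTG in 7 (28.2%) and the palindrome CACGTG, which holds an ACGTG core on each strand, in 1 (6.02%). The windows of *Ldha*, *Pgk1* and *Tpi1* are shown as genes called in both states that hold 5, 2 and 0 of these words. *Pfkp*, also called in both states, holds 3 (GCGTG) and its window is not shown. *Ldha* has a second start site, whose window holds 1 and is not shown. Capitals mark ACGTG or GCGTG on either strand, so that the reverse strand reads CACGT or CACGC, and windows run 5′ to 3′ along the gene.

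*Ldha*, chr7:46845554-46845803, plus strand: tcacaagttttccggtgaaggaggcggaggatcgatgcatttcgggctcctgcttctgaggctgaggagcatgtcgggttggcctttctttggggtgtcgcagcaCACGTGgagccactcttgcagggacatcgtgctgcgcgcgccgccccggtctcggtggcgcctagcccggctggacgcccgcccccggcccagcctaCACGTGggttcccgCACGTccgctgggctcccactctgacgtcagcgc
*Pgk1*, chrX:106186850-106187099, plus strand: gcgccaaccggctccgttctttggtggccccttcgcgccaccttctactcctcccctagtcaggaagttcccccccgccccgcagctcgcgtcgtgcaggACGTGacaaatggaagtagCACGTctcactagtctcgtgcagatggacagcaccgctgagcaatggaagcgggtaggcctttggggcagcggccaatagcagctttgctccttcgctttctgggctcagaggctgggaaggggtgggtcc
*Tpi1*, chr6:124814159-124814408, minus strand: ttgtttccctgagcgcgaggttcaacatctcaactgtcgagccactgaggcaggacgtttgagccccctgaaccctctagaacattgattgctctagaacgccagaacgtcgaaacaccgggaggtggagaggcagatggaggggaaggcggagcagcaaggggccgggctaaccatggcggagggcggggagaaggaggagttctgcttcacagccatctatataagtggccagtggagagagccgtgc

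The *Ldha* window holds 5 cores, of which 4 form 2 CACGTG palindromes, and the *Pgk1* window holds 2 cores. The *Tpi1* window holds none of them. The words are a description of the sequence, and binding was not measured here. Their part in the differences between the subsets was not tested.

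The other genes of glucose uptake and glycolysis in the table were mostly higher in CD44high Tregs as well. Of 20 further transporters and enzymes, 16 were tested, and 10 were higher and 2 lower in CD44high Tregs in uninjured as well as in injured mice, with a median log2 fold change of 0.76 and 0.50. Among all genes tested, 24.7% were higher and 21.3% lower in uninjured mice, and 20.1% higher and 17.2% lower in injured mice. In uninjured mice the smallest p-values among those higher belonged to *Pkm* (pyruvate kinase, log2 fold change 0.97 ± 0.09, adjusted p = 7.39e-09) and *Bpgm* (bisphosphoglycerate mutase, 1.28 ± 0.16, adjusted p = 4.08e-07), and in injured mice to *Slc16a3* (the lactate exporter MCT4, 1.43 ± 0.18, adjusted p = 6.39e-07) and *Pkm* (0.69 ± 0.09, adjusted p = 1.05e-06). *Pkm* was at 1882 ± 95.1 CPM in CD44high and 959 ± 70.4 CPM in CD44low Tregs of uninjured mice. The 2 lower genes were *Eno3*, the muscle enolase (-1.69 ± 0.23 and -1.56 ± 0.22), and *Ldhb*. After injury 0 of the 16 were called by edgeR in CD44high Tregs, with 1 at an unadjusted p under 0.05 and 0 called by DESeq2, and 0 in CD44low Tregs, with 3 at an unadjusted p under 0.05 and 1 called by DESeq2. The share of all genes tested that edgeR called was 2.38% in CD44high and 7.6% in CD44low Tregs.

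The regulators of the pathway were mixed in direction, and the share of them called lay near that of all genes tested (46.1% in uninjured and 37.4% in injured mice). Of 13 tested, 2 were higher and 5 lower in CD44high Tregs of uninjured mice, and 2 higher and 4 lower in injured mice. *Hif1a*, the oxygen-regulated subunit of HIF-1, was higher (log2 fold change 0.77 ± 0.11 in uninjured and 0.79 ± 0.10 in injured mice, adjusted p = 3.76e-06 and 1.80e-06), and so was *Pdk3*, a kinase that holds pyruvate dehydrogenase inactive (0.99 ± 0.14 and 0.74 ± 0.13). *Myc*, a driver of glycolytic genes in activated T cells, was lower in CD44high Tregs, at 127 to 152 CPM against 334 to 437 CPM in uninjured mice (-1.42 ± 0.10, adjusted p = 8.48e-11) and at 174 to 222 CPM against 433 to 522 CPM in injured mice (-1.25 ± 0.10, adjusted p = 6.82e-10). *Pdk1*, another kinase of pyruvate dehydrogenase and a HIF-1 target, was also lower (-1.58 ± 0.14 and -1.40 ± 0.14). After injury *Myc* rose in CD44high Tregs (0.45 ± 0.11, adjusted p = 0.0217) and *Pdk2* fell (-0.70 ± 0.16, adjusted p = 0.0203), and in CD44low Tregs *Pdk3* rose (0.46 ± 0.13, adjusted p = 0.0355) and *Arnt*, the partner of HIF-1α, fell (-0.50 ± 0.14, adjusted p = 0.0305). These were 2 of 13 in each subset, beside 2.38% of all genes tested in CD44high and 7.6% in CD44low Tregs. Injured and uninjured libraries overlapped for *Pdk3* and *Arnt*, and not for *Myc* and *Pdk2*.

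HIF targets outside glycolysis were mixed too, beside the same shares of all genes tested. Of 13 tested, 5 were higher and 1 lower in CD44high Tregs of uninjured mice, and 5 higher and 3 lower in injured mice. *Egln3*, a prolyl hydroxylase that marks HIF for degradation, differed by 2.89 ± 0.31 and 2.57 ± 0.30 on the log2 scale, and *Ero1l*, an oxidase of the endoplasmic reticulum, by 1.12 ± 0.12 and 0.93 ± 0.12, while the histone demethylase gene *Kdm3a* was lower (-1.01 ± 0.15 and -0.76 ± 0.14). After injury *Ddit4*, an inhibitor of mTORC1 that glucocorticoids and hypoxia induce, rose from 40.2 ± 4.59 to 88.1 ± 16.9 CPM in CD44high Tregs (1.13 ± 0.17, adjusted p = 0.000313) and from 51.3 ± 8.47 to 129 ± 24.5 CPM in CD44low Tregs (1.33 ± 0.14, adjusted p = 1.28e-05). In CD44high Tregs *Ndrg1* fell (-0.66 ± 0.17, adjusted p = 0.0329), and in CD44low Tregs *Egln1* rose (0.59 ± 0.12, adjusted p = 0.00439), *Plin2* rose (0.74 ± 0.21, adjusted p = 0.0354) and *Kdm3a* fell (-0.50 ± 0.13, adjusted p = 0.0198). With *Ddit4* these were 2 of 13 in CD44high and 4 of 13 in CD44low Tregs, beside 2.38% and 7.6% of all genes tested. Among them only *Plin2* overlapped between injured and uninjured libraries.

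Of the 7 genes of the pentose phosphate pathway, which branches off after hexokinase, 5 were higher in CD44high Tregs of uninjured mice and 4 in injured mice, with *Taldo1* (0.59 ± 0.11) and *Rpe* (0.49 ± 0.11) at the smallest p-values in uninjured mice and 0 lower. Among all genes tested, 24.7% were higher in uninjured and 20.1% in injured mice. After injury edgeR called 0 of the 7 in either subset, with 1 in CD44high and 2 in CD44low Tregs at an unadjusted p under 0.05, and DESeq2 called 0 and 2. The share of all genes tested that edgeR called after injury was 2.38% in CD44high and 7.6% in CD44low Tregs. Of 23 genes of pyruvate entry and the tricarboxylic acid cycle, 6 were higher and 1 lower in uninjured mice, and 6 higher and 1 lower in injured mice, of which 5 and 1 were called in both states. Called in either direction were 46.1% of all genes tested in uninjured and 37.4% in injured mice. *Sdhd* and *Idh3a* were higher by 0.75 each in uninjured mice, and *Suclg2* was lower by -0.48 ± 0.12. The median log2 fold change of the 23 was 0.08 in uninjured and 0.06 in injured mice, against 0.38 and 0.39 for the 9 members tested. After injury edgeR called 0 of the 23 in CD44high Tregs, with 2 at an unadjusted p under 0.05 and 1 called by DESeq2. In CD44low Tregs 2 rose, *Sdhb* of succinate dehydrogenase (0.36 ± 0.10, adjusted p = 0.0298) and *Mdh2*, the mitochondrial malate dehydrogenase (0.41 ± 0.11, adjusted p = 0.0325), with 8 at an unadjusted p under 0.05 and 2 called by DESeq2. There edgeR called 4.24% of all genes tested higher.

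For the members that differed most between the subsets, the genes with the most similar profile over the 19 libraries were sought by the root mean square difference of log2 CPM, each gene centred on its mean. Nearest to *Tpi1* were *Mtch1* (0.164), *AW112010* (0.165) and *Ripk3* (0.173), and nearest to *Pgk1* were *Phgdh* (0.0808), *Cdc42* (0.115) and *Smpdl3a* (0.120), out of 11455 genes compared. The libraries share the split into subsets, and the difference between CD44high and CD44low Tregs was 0.88 for *Phgdh* in uninjured and 0.61 in injured mice on the log2 scale.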

How the data were processed

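The authors aligned and counted reads with STAR 2.5 through the VIPER workflow after bcl2fastq 2.18, and deposited raw counts per gene, not normalized and with replicates apart. Their processing notes name the builds mm9 and mm10 with no role, so no gene coordinates are given from the counts. Total counts per library lay between 5582234 and 9433610, and floors (3 counts) cover counting error only. Of 24982 symbols, 24463 matched GENCODE.

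Counts were tested with edgeR 4.0.16 (R 4.3.3): minimum count 10, TMM factors, 1 mean per group over all 19 libraries, no covariate, the quasi-likelihood test (two-sided) and Benjamini-Hochberg adjustment over 11464 genes for each of 5 comparisons. Ratios used log2 counts with a pseudocount of 0.5, and log2 CPM a prior count of 2. Word searches used GENCODE transcripts and words of 50 and 100 bases. Groups came from the labels. Named genes were all members and, per list and comparison, up to 4 called genes, the 2 of smallest p in each direction. *Cd44*, *Foxp3*, *Cd4*, *Lyz2*, *Cd14*, *S100a9*, *Gapdh* and *Plin2* were named outside this rule, after their values were seen. The members and lists were chosen with earlier results of these data known.

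DESeq2 1.42.0, RLE, upper-quartile and total-count scaling, no filter, only the groups compared, replicate blocks, other thresholds, libraries with a second number summed or left out and each library left out were alternatives, and an offset for length and GC was added after seeing the data. The tests were tested on simulated data first. There edgeR recovered 13.6% of changes of 0.5 on the log2 scale for injury in CD44high Tregs. It recovered 21.2% of them for injury in CD44low Tregs and 4.55% for the interaction. Of changes of 1 it recovered 73.1%, 79.1% and 53.7%. The changed genes were drawn from all genes tested, so the shares for the members may differ.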

Additional observations from a re-analysis of the deposited data

Results flagged for a closer look

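Within groups of 4 to 6 libraries, the highest or lowest library was compared with the rest for each member and ratio, 52 checks in all, and 2 libraries stood apart where about 2.6 would by chance. *Hk2* was at 10.5 CPM in CD44low library 1 of the uninjured mice, and the other 4 libraries of that group were at 0.284 to 2.44 CPM. *Aldoa* was at 666 CPM in CD44high library 4 of the uninjured mice, below the other 3 libraries at 719 to 722 CPM, which lay unusually close together. No member had an interaction of subset and injury past the threshold.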

How the results depend on the processing

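The 5 genes called in uninjured mice (*Tpi1*, *Pgk1*, *Pfkp*, *Ldha* and *Aldoa*) and *Tpi1*, *Pgk1*, *Pfkp* and *Ldha* in injured mice kept their direction and an adjusted p under 0.05 in every alternative fit. At the study's threshold 1 member was counted in each comparison of the subsets. Over single left-out libraries the count was 5 to 6 in either state, 0 to 1 for injury in CD44high and 0 to 2 for injury in CD44low Tregs. For injury in CD44low Tregs it was 1 with DESeq2, with RLE factors and without libraries 1_2, 4_2 and 5_2, in each case *Ldha*. *Hk2* over *Hk1* in injured mice passed at 0.74 (libraries summed) and 1.63 (second-number libraries left out). Over single left-out libraries *Ldha* over *Ldhb* in uninjured mice ranged from 1.17 to 1.31 and *Slc2a1* over *Slc2a3* there from -0.45 to -0.22. The cause of these shifts was not tested.

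The directions that reversed belonged to changes near 0 or to *Hk2*. *Aldoa* after injury in CD44high Tregs was 0.00766 with upper-quartile factors, 0.0114 with total counts, 0.0115 without a filter, 0.0217 with only the groups compared, and -0.0753 to 0.0336 over left-out libraries. With length and GC trends taken out, chosen after seeing the data, *Pfkp* after injury in CD44high Tregs was 0.00609, *Hk1* and *Pgk1* after injury in CD44low Tregs were 0.0108 and -0.0292, and the interaction of *Ldha* was 0.00978. Without libraries 1_2, 4_2 and 5_2, *Slc2a3* after injury in CD44low Tregs was 0.0146. Over left-out libraries, ranges that crossed 0 were -0.198 to 0.0212 for *Slc2a1* between subsets in uninjured mice, -0.00713 to 0.132 for *Hk1* in injured mice, for injury in CD44high Tregs -0.0394 to 0.288 (*Hk2*), -0.0911 to 0.0155 (*Pfkp*), -0.0664 to 0.00319 (*Pgk1*), -0.139 to 0.0266 (*Tpi1*) and -0.0242 to 0.102 (*Slc2a3*), for injury in CD44low Tregs -0.102 to 0.0262 (*Hk1*) and -0.520 to 1.13 (*Hk2*, the latter without CD44low library 1), and for the interaction -1.01 to 0.637 (*Hk2*) and -0.120 to 0.00852 (*Ldha*).

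Over the 8 pairs of libraries with the same number within an injury state, the correlation of their deviations ran from -0.05 to 0.17 (median 0.08) and was over 0.1 in 4, against 5 of 36 pairs with different numbers (median -0.02). These values do not settle whether the same number marks a pair, and the main fits took no pairs. In blocks within each injury state, a library whose number is absent from the other subset adds nothing to the comparison of the subsets. Such libraries were CD44low library 1 of uninjured mice, and CD44low libraries 1 and 1_2 and CD44high library 3 of injured mice. With the replicate block over all samples 5 members were called in uninjured and 6 in injured mice, and with the replicate block within each injury state 6 and 6. Under the first, *Slc2a1* in injured mice was not called (adjusted p = 0.123), *Aldoa* was (0.0484), and *Hk2* after injury in CD44low Tregs was 0.0663. Under the second, *Slc2a3* in injured mice was not called (0.0632), *Aldoa* (0.0425) and *Hk2* in uninjured mice (1.85, 0.0209) were, *Slc2a1* in uninjured mice was 0.00518, and the interactions of *Hk2* and *Ldha* were -1.05 and 0.115. No scaling moved the median of all genes by more than 0.06 on the log2 scale. Depth limits *Hk2*, with 2 to 67 counts per library. *Eno1* had 0 to 3, and its level is uncertain because its transcript shares most of its sequence with a copy.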
